A study of Rattus norvegicus with 12 samples.

Results

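The genes examined here are 52 genes of the cell cycle and of mitosis, chosen by name and not by a threshold on values in these kidneys. They comprise the cyclins and the kinase of G1 (6 genes), transcription factors of the cycle (3 genes), genes of DNA replication and nucleotide supply in S phase (15 genes) and genes of mitosis and cytokinesis (28 genes). Of these 52, 50 had 1 entry each among the 22132 entries of the control and adenine table and the 32623 entries of the sham and UUO table. E2f1 and Ccnb2 were not analysed here. Expression was measured as FPKM, the number of sequenced fragments scaled by transcript length and by mapped fragments.

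RNA came from kidneys of 12 male wild-type SD rats, 8 weeks old at purchase and older at sampling, with 3 different animals in each of 4 groups. The control group received saline and the adenine group received adenine at 220 mg/kg per day, both by gavage for 3 weeks. In the UUO group the left ureter was ligated (unilateral ureteral obstruction), in the sham group the operation was done without ligation, and both were sampled after 2 weeks. The comparisons ask how each form of renal fibrosis differs from its own reference group. The 2 models also differ in agent, surgery and duration, so a difference between them cannot be assigned to any one of these. The tables were normalized separately, and levels were not compared across them.

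A cell that leaves quiescence uses D-type cyclins, then cyclin E with CDK2, to inactivate the RB family of pocket proteins and release E2F factors. E2F targets load and fire replication origins and supply nucleotides in S phase, and B-MYB and FOXM1 later drive genes for mitotic kinases, the spindle and cytokinesis. Adult kidney tubule cells divide rarely, and they can re-enter the cycle after injury, when CDK inhibitors such as p21 may halt them. Infiltrating leukocytes and fibroblasts can divide as well.

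Summed FPKM lay between 468389 and 630244 per kidney, the 10 highest genes held 28.1% to 31.8% of it in the reference groups and 11.7% to 18.9% in the diseased groups, and the number of reads is unknown. The tissue expressed the markers of kidney tubule: 8 proximal tubule markers summed to 1440 to 2170 FPKM in control and 2060 to 2290 FPKM in sham rats, against 159 to 475 FPKM in adenine and 281 to 531 FPKM in UUO rats. Of the 8, 4 fell and 1 (Slc5a12, a lactate transporter, from 1.81, 0.0254 and 0.362 to 3.22, 10.7 and 12.5 FPKM) rose in the adenine model, and 5 fell in the UUO model. Many markers of other cell types moved with both diseases. Of 6 loop and distal markers, 4 fell in the adenine and 6 in the UUO model. Of 4 podocyte markers, 1 fell in each model. Of 4 endothelial markers with an entry, 1 rose and 2 fell in the adenine model, and 2 rose and none fell in the UUO model. The sum of 9 macrophage markers was 55.2 to 61.5 FPKM in control and 1230 to 1680 FPKM in adenine rats, and 62.3 to 76.5 FPKM in sham and 723 to 1120 FPKM in UUO rats. All 9 rose in both models, as did the 7 T cell markers with an entry (sums of 9.11 to 15.4 against 118 to 124 FPKM, and of 14 to 20.8 against 124 to 271 FPKM). Most of the adenine T cell sum was Cd4, which rat macrophages also express, and the other 6 summed to 6.03 to 7.99 FPKM in control and 19.3 to 37.9 FPKM in adenine rats. The fibroblast and myofibroblast markers also rose, 7 of 7 in the adenine and 8 of 8 in the UUO model (81.5 to 118 against 567 to 768 FPKM, and 81.8 to 112 against 1150 to 2560 FPKM). Cd163 was listed at the lowest value, 0.0001 FPKM, in sham rats 1 and 3, and no other macrophage, T cell or fibroblast marker with an entry was at the lowest value in any kidney. B and plasma cell markers summed to 3.24 to 6.38 against 18.9 to 48.2 FPKM in the adenine model, where 1 of 3 tested rose, and to 3.24 to 5.28 against 22.2 to 72.6 FPKM in the UUO model, where 3 of 4 rose. Urothelium markers summed to 0.646 to 2.67 FPKM in sham and 72 to 145 FPKM in UUO rats, with 5 of 5 tested higher, and in the adenine model neither of the 2 tested passed. The 6 injured tubule markers summed to 103 to 604 FPKM in control and 11300 to 12700 FPKM in adenine rats, and 243 to 485 FPKM in sham and 9370 to 12600 FPKM in UUO rats, with 5 of 6 and 6 of 6 higher by the test. The part of these cells in the results below was not tested, and in whole kidney more cells of a type and more RNA per cell cannot be told apart.

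Sequences upstream of the genes were read first, because the S phase and mitosis genes are known targets of different promoter elements. RefSeq promoter windows of the GRCr8 rat assembly (250 bases before to 50 after a gene's start) were matched by symbol for 40 of the 52 genes, in 43 windows. On either strand, an E2F word, here TTGGCGC with its variant forms TTGCCGC in one case, TTCGCGC in another and TTCCCGC in the last, occurred in 9 of 12 S phase genes (75%) and in 5 of 24 mitosis genes (20.8%), beside 10.6% of all genes with a window and 17.7% of those tested in both tables. The CHR element (cell cycle genes homology region, TTTGAA), which factors of the late cell cycle are known to use, occurred in 15 of 24 mitosis genes (62.5%) and in 1 of 12 S phase genes (8.33%), beside 19.4% of all genes and 12.3% of those tested. The CCAAT box (CCAAT) stood in 66.7% of the S phase and 70.8% of the mitosis genes, and in 39.6% of all genes. An E2F word overlapped a CCAAT box in 1 window of these genes, and a CHR in another 1. Such a match is a string of letters and not evidence of binding.

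Below are the 150 bases before the start of 3 MCM helicase genes, shown for their E2F words, and of 3 mitosis genes, shown for their CHR. Position -1 is the base before the start and a position is that of the leftmost base of a word. E2F words are in capitals in Mcm2 (chr4:122918095-122918244, minus strand, at -13 and -10, overlapping), Mcm5 (chr19:13488663-13488812, plus strand, at -7) and Mcm6 (chr13:42404353-42404502, minus strand, overlapping words at -138 and -135 and at -75 and -72, and a word at -5 that runs past the start).
Mcm2: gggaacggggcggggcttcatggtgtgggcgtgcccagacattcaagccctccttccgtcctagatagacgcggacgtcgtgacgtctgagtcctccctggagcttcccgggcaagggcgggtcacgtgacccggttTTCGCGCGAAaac
Mcm5: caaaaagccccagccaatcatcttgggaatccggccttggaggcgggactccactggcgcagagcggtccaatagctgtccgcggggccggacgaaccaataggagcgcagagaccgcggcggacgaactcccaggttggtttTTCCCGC
Mcm6: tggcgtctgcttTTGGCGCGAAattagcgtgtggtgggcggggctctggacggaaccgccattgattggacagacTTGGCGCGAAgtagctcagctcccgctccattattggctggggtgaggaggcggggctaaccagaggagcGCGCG
The CHR is in capitals in Cdk1 (chr20:19265143-19265292, plus strand, at -72 and -16), Top2a (chr10:84473094-84473243, minus strand, at -22, on the opposite strand) and Prc1 (chr1:143659331-143659480, plus strand, at -18).
Cdk1: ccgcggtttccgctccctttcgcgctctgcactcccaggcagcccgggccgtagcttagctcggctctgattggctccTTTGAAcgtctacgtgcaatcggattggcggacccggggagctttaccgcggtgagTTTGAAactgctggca
Top2a: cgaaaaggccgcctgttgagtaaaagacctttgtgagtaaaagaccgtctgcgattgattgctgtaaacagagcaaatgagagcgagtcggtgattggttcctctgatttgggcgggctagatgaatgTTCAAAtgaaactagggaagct
Prc1: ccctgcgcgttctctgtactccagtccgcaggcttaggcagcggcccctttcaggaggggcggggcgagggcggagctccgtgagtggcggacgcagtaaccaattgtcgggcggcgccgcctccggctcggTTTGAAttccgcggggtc
Melk (chr5:63336001-63336150, plus strand), whose values went opposite to those of most mitosis genes, is shown for comparison. Its window holds none of the E2F words listed above, no TTTGAA and no CCAAT box. Other forms of these elements were not searched for, so their absence is not shown.
Melk: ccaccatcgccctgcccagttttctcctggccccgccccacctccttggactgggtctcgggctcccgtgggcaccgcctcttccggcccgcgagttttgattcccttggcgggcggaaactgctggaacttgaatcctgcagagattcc

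In the reference kidneys most of these genes were low. Since FPKM is scaled by length, levels can be set side by side within a table. The median of the 50 group means was 1.45 FPKM in control and 1.99 FPKM in sham rats, with 19 and 16 genes under 1 FPKM, and 4.86 FPKM in adenine and 4.36 FPKM in UUO rats, with 4 and 3 genes under 1 FPKM. The highest in control rats were Ccnd1 (mean 53.3 FPKM), Pcna (34.9 FPKM), Ccnd3 (25.4 FPKM) and Melk (12.3 FPKM). In the diseased groups Pcna, the sliding clamp of the replication fork, was the highest of the 50, at 44 FPKM in adenine and 60.5 FPKM in UUO rats.

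A gene was tested where FPKM reached 0.5 in at least 3 of the 6 kidneys of its table, and it passed where limma on log2(FPKM + 0.1) gave a Benjamini-Hochberg adjusted p under 0.05 over all tested entries. By this rule 48 of the 50 genes were tested in each table, and the added 0.1 understates the log2 fold changes of low genes. Of the 48, 34 had all 3 control rats and 35 all 3 sham rats at the minimum, while 5 in the adenine model (Bub1b, Anln, Cdc6, Ttk and Uhrf1) and 3 in the UUO model (Uhrf1, Cdc6 and Ttk) had every reference rat below it and were tested only through the diseased group. In the adenine model 34 genes rose, 3 fell and 11 did not pass. Of all tested entries 39.6% rose and 19.9% fell (59.4% passed). In the UUO model 36 rose, 4 fell and 8 did not pass, beside 56.1% of entries that rose and 14.4% that fell (70.5% passed). With no minimum, 34 of the 50 rose and 3 fell in the adenine model, and 34 rose and 4 fell in the UUO model. The median log2 fold change of the 48 was 1.36 in the adenine model, where that of all tested entries was 0.30, and 1.29 in the UUO model, where that of all entries was 0.62.

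The shift of all entries was larger in the UUO model. Scaling by median-of-ratios, in contrast to the deposited scale, brought the median of all entries to 0.01 in both models. In the adenine model 31 genes then rose and 4 fell, beside 28.7% and 28.6% of all entries. In the UUO model only 15 rose and 4 fell, beside 27.2% and 28.8% of all entries. The UUO share that rose was then near that of all entries. The 21 UUO calls lost with that scaling were Ccnd3, Ccne2 and Cdk2 of G1, Foxm1, the S phase genes Gins2, Pcna, Rrm1 and Rrm2, and the mitosis genes Cdk1, Ccna2, Plk1, Aurka, Aurkb, Bub1, Bub1b, Mad2l1, Ttk (no longer above the minimum), Ube2c, Prc1, Anln and Top2a. Of the 13 S phase and 16 mitosis genes that rose in the main UUO comparison, the helicase and licensing genes Mcm2 to Mcm7, Cdc6, Cdt1 and Uhrf1 and the mitosis genes Mki67, Cdc25c and Kif23 were still higher and passing. With quantile normalization 28 genes rose and 4 fell in the adenine model, beside 28.6% and 28.7% of all entries. In the UUO model 14 rose and 4 fell, beside 29.3% and 27.5%, so the share that rose was again near that of all entries. The groups did not overlap in 37 genes that were higher and 4 that were lower in adenine rats (45% and 23% of entries, 68% in all), and in 40 higher and 4 lower in UUO rats (60% and 15.7% of entries, 75.7% in all). A passing gene counted as a DEG where its log2 fold change also reached 2 in size, the fold threshold of the study. By this rule 9 genes rose and 1 fell in the adenine model (10.7% and 5.03% of entries), and 3 rose and 1 fell in the UUO model (13.2% and 4.21% of entries). Among those that rose, Uhrf1, Bub1b and Anln in the adenine model were tested only through the diseased group. The same held for Uhrf1 and Cdc6 in the UUO model. The 10 DEGs of the adenine model became 5 without control rat 3 and 6 without adenine rat 2, and the 4 of the UUO model became 12 without sham rat 3.

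**Figure D1:**
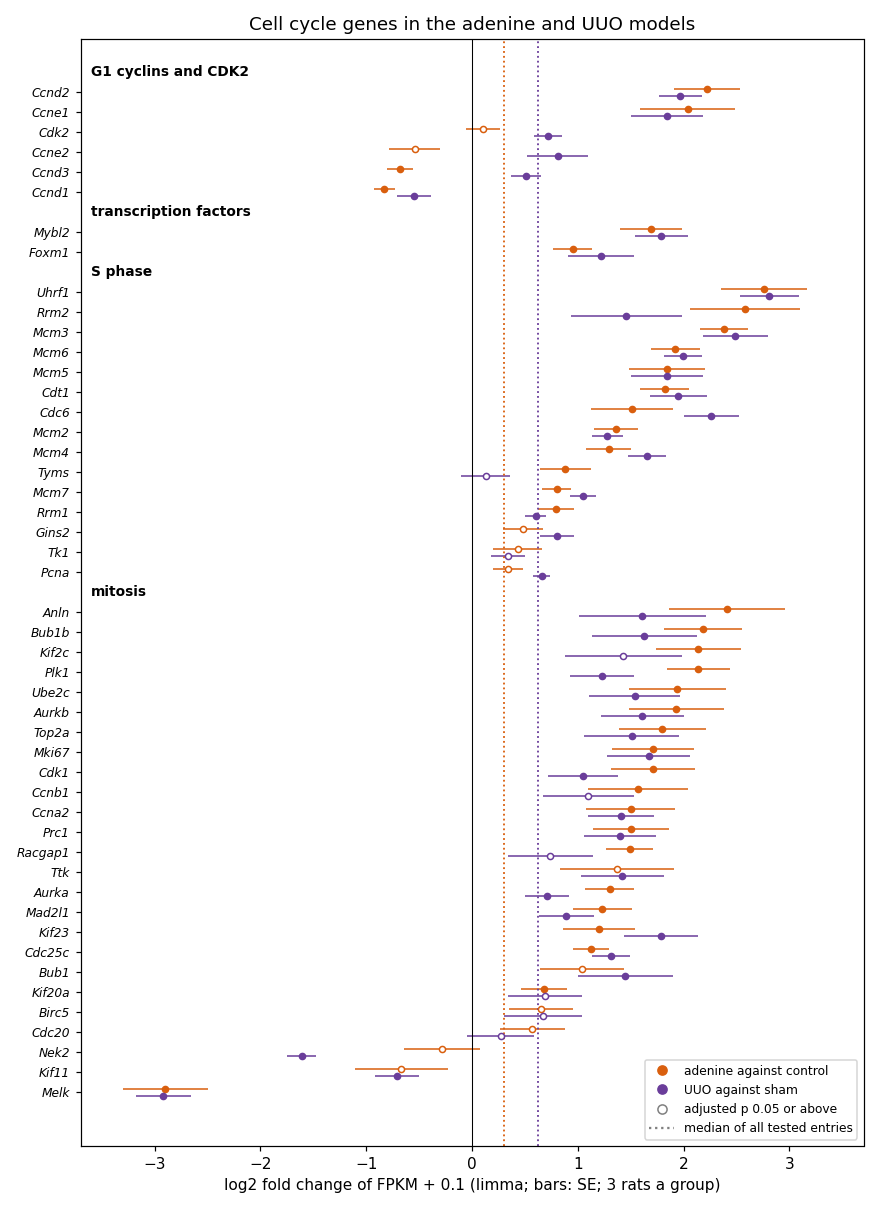
Log2 fold change of FPKM + 0.1 (x axis) with its SE for each of the 48 tested genes (y axis, by role), adenine against control in orange and UUO against sham in purple, 3 rats a group. Open points did not pass, dotted lines are the medians of all tested entries (0.30 and 0.62), and Melk stands alone at -2.90 and -2.92.

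The D-type cyclins, which couple growth signals to CDK4 and CDK6, did not move together. Ccnd1 was 48, 57.5 and 54.6 FPKM in control and 30.2, 30.8 and 28.9 FPKM in adenine rats, and 89.6, 81.4 and 59.4 FPKM in sham and 51.4, 53.9 and 50 FPKM in UUO rats. Every diseased kidney was below every kidney of its reference group, and Ccnd1 fell in both models (log2 fold change -0.83, SE 0.10, adjusted p = 0.000672, and -0.55, SE 0.16, adjusted p = 0.0169). Ccnd2 went the other way, from 1.02, 0.676 and 1.6 to 4.37, 5.9 and 5.49 FPKM in the adenine model and from 2.49, 2.56 and 3.79 to 10.3, 13.1 and 11.9 FPKM in the UUO model. It rose with no overlap in either model (2.22, SE 0.31, adjusted p = 0.00109, and 1.97, SE 0.20, adjusted p = 0.000171). Ccnd3 was 26.2, 24 and 26.1 FPKM in control and 14.7, 17.9 and 14.9 FPKM in adenine rats. In the other table it was 25, 29.2 and 21.8 FPKM in sham and 40.6, 35.8 and 31.7 FPKM in UUO rats. It thus fell in the adenine model (-0.68, SE 0.12, adjusted p = 0.00251) and rose in the UUO model (0.51, SE 0.14, adjusted p = 0.0158), but with median-of-ratios scaling the UUO value was -0.10.

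Cyclin E binds CDK2 for entry into S phase. Ccne1 was 0.492, 0.859 and 0.183 FPKM in control and 1.98, 2.55 and 1.94 FPKM in adenine rats, and 0.373, 0.542 and 0.955 FPKM in sham and 1.99, 2.66 and 2.45 FPKM in UUO rats. All diseased kidneys lay above the reference kidneys, and the gene rose in both models (2.04, SE 0.45, adjusted p = 0.0076, and 1.84, SE 0.34, adjusted p = 0.0025). Its relative Ccne2 was 1.62, 2.26 and 1.54 FPKM in control and 1.01, 1.15 and 1.46 FPKM in adenine rats, groups that did not overlap but did not pass (-0.54, SE 0.24, adjusted p = 0.099). In the UUO model Ccne2 rose from 1.07, 0.734 and 1.28 to 2.02, 1.38 and 2.22 FPKM (0.81, SE 0.29, adjusted p = 0.0403). This call was lost without UUO rat 1 or 3 or sham rat 1 or 2, and the value was -0.06 with quantile normalization. Cdk2 was 7.18, 7.63 and 8.09 FPKM in control and 9.95, 7.29 and 7.48 FPKM in adenine rats, which overlapped (0.10, SE 0.16, adjusted p = 0.621). From 7.45, 7.02 and 8.44 FPKM in sham it rose to 14.4, 11.8 and 11.7 FPKM in UUO rats (0.72, SE 0.13, adjusted p = 0.00268).

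Both transcription factors with an entry rose in each model. Mybl2, encoding B-MYB, was 0.313, 0.395 and 0.535 FPKM in control and 1.27, 1.97 and 1.42 FPKM in adenine rats (1.69, SE 0.29, adjusted p = 0.00253). In sham it was 0.402, 0.362 and 0.522 FPKM and in UUO rats 1.85, 1.89 and 1.45 FPKM (1.79, SE 0.25, adjusted p = 0.000734). Foxm1, a driver of mitotic transcription, was 1.44, 1.28 and 1.41 FPKM in control and 2.43, 3.17 and 2.69 FPKM in adenine rats (0.95, SE 0.18, adjusted p = 0.00444), and 0.822, 1.48 and 1.83 FPKM in sham and 3.95, 2.84 and 2.89 FPKM in UUO rats (1.22, SE 0.31, adjusted p = 0.0111). Neither gene's groups overlapped. The adenine call of Foxm1 was lost with quantile normalization.

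Of the 15 S phase genes, 12 rose in the adenine and 13 in the UUO model, beside 39.6% and 56.1% of all entries. None of the 15 fell, and 3 and 2 did not pass. Their median log2 fold change was 1.36 and 1.46. All 6 MCM genes, subunits of the replicative helicase, rose in both models. Mcm3 had the highest fold change among them, from 1.21, 1.99 and 1.32 to 7.85, 9.55 and 7.06 FPKM in the adenine model and from 1.03, 2.29 and 2.29 to 10.7, 10.9 and 9.58 FPKM in the UUO model (2.38, SE 0.23, adjusted p = 0.00025, and 2.49, SE 0.31, adjusted p = 0.000415). Mcm2, shown above with its E2F words, went from 3.02, 4.83 and 3.76 to 8.65, 11.8 and 9.52 FPKM and from 5.16, 6.57 and 5.88 to 15.3, 15.7 and 12.2 FPKM (1.36, SE 0.21, adjusted p = 0.00173, and 1.28, SE 0.15, adjusted p = 0.00034). Mcm7 had the smallest rise of the 6 (0.80 and 1.05), and Mcm4, Mcm5 and Mcm6 lay between 1.29 and 1.99. No MCM gene overlapped between diseased and reference kidneys in either table.

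Among the other replication genes, Uhrf1, which keeps DNA methylation through replication, had the highest log2 fold change of the 48 genes in the adenine and UUO models. It was 0.34, 0.37 and 0.0948 FPKM in control and 1.81, 2.96 and 2.04 FPKM in adenine rats (2.76, SE 0.41, adjusted p = 0.00145), and 0.232, 0.277 and 0.475 FPKM in sham and 2.73, 3 and 2.75 FPKM in UUO rats (2.81, SE 0.28, adjusted p = 0.000159). All 6 reference kidneys were under the minimum of 0.5 FPKM, so Uhrf1 was tested only because the diseased kidneys were above it. The licensing factors Cdc6 (1.51 and 2.26) and Cdt1 (1.82 and 1.95), which load the helicase at origins, rose in both models. Pcna, already abundant, was 31.5, 41.9 and 31.4 FPKM in control and 40.5, 47.1 and 44.2 FPKM in adenine rats, which overlapped and did not pass (0.34, SE 0.14, adjusted p = 0.0764). In UUO rats it rose from 36.4, 37.5 and 41.2 to 60, 60.5 and 60.9 FPKM (0.66, SE 0.08, adjusted p = 0.000376), close to the median of all entries of that table. Gins2, of the GINS complex of the fork, was 0.48 (SE 0.19, adjusted p = 0.0689) in the adenine model and rose by 0.80 in the UUO model.

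The 4 nucleotide supply genes were uneven. Rrm2, the regulated subunit of ribonucleotide reductase, was 1.29, 0.687 and 0.377 FPKM in control and 2.79, 8.38 and 4.45 FPKM in adenine rats (2.58, SE 0.52, adjusted p = 0.00499), and 0.591, 1.84 and 2.72 FPKM in sham and 3.71, 3.43 and 5.78 FPKM in UUO rats (1.46, SE 0.52, adjusted p = 0.0401). Its spread was wide within each group, and its UUO call was lost without sham rat 2 or without any one of the UUO rats. Rrm1, the partner subunit, rose by 0.79 and 0.60, though the UUO value was -0.01 with median-of-ratios scaling. Tyms, thymidylate synthase, rose in the adenine model (0.88, SE 0.24, adjusted p = 0.019) from 4.68, 3.11 and 2.93 to 5.22, 8.12 and 6.53 FPKM, a call lost without control rat 2 or 3 or adenine rat 2 or 3. In sham rats it was 4.76, 6.12 and 7.95 FPKM and in UUO rats 5.82, 6.26 and 8.4 FPKM, which overlapped (0.13, SE 0.23, adjusted p = 0.623). Tk1, cytosolic thymidine kinase, passed in neither model (0.43, adjusted p = 0.155, and 0.34, adjusted p = 0.0886).

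**Figure D2:**
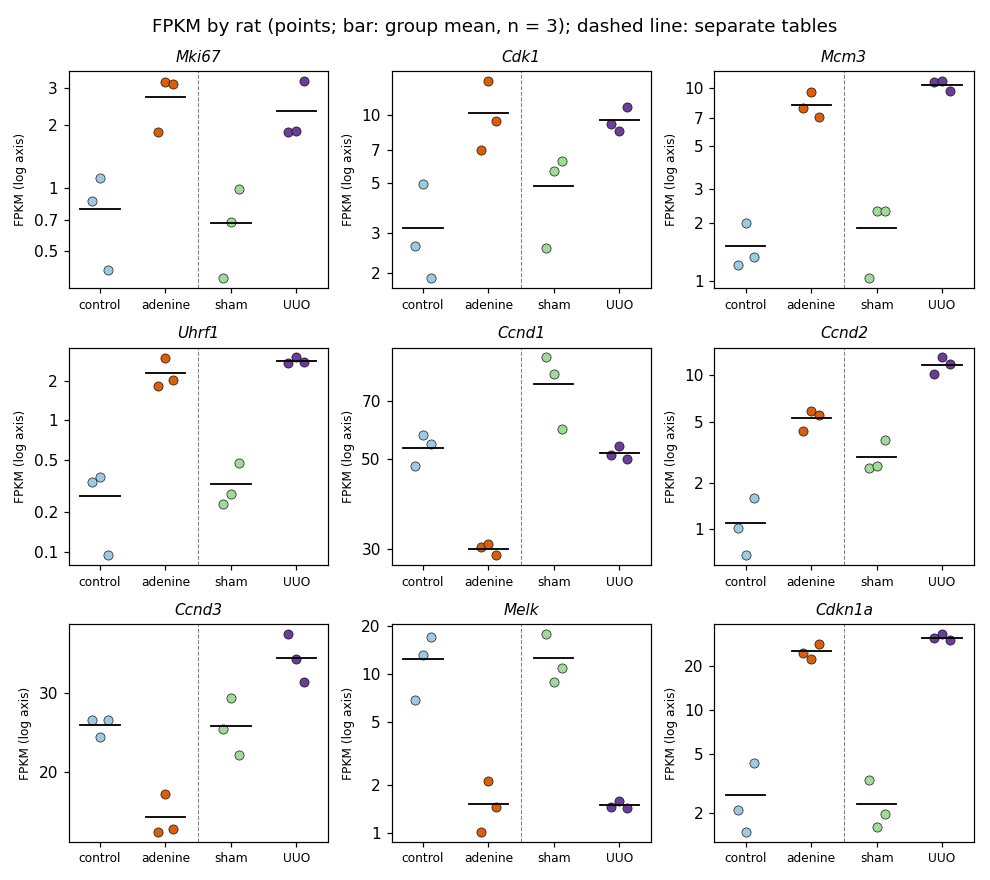
FPKM of 9 genes (log y axes) in each rat (points) with the group mean (bar, n = 3), the dashed line separating tables that were normalized separately. Mcm3, Uhrf1, Ccnd2 and Cdkn1a stand higher in both diseased groups, Ccnd1 and Melk lower in both, and Ccnd3 lower in adenine but higher in UUO rats.

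Of the 25 tested mitosis genes, 18 rose and 1 fell in the adenine model (median 1.49), and 16 rose and 3 fell in the UUO model (median 1.31). The other 6 in each model did not pass. Of all entries 39.6% rose and 19.9% fell in the adenine model (median 0.30). In the UUO model 56.1% rose and 14.4% fell (median 0.62), shares near those of the mitosis genes. Mki67, encoding the Ki-67 protein that marks cycling cells, was 0.861, 1.11 and 0.402 FPKM in control and 1.85, 3.18 and 3.12 FPKM in adenine rats, and 0.369, 0.682 and 0.98 FPKM in sham and 1.84, 1.86 and 3.24 FPKM in UUO rats. It rose in both, without overlap (1.71, SE 0.39, adjusted p = 0.00894, and 1.67, SE 0.39, adjusted p = 0.00725). Top2a, the topoisomerase that untangles sister chromosomes, was 1.4, 1.78 and 0.682 FPKM in control and 2.86, 6.13 and 4.98 FPKM in adenine rats, and 0.868, 1.67 and 3.23 FPKM in sham and 4.58, 4.1 and 6.53 FPKM in UUO rats. It rose as well (1.80, SE 0.41, adjusted p = 0.00877, and 1.51, SE 0.45, adjusted p = 0.0203), its UUO call being lost without sham rat 2 (or UUO rat 3).

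The master mitotic kinase Cdk1 was 2.64, 4.94 and 1.89 FPKM in control and 6.99, 14.2 and 9.4 FPKM in adenine rats (1.71, SE 0.40, adjusted p = 0.00929). In sham rats it was 2.57, 5.65 and 6.27 FPKM and in UUO rats 9.11, 8.52 and 10.8 FPKM (1.05, SE 0.33, adjusted p = 0.0261). Both groups of diseased kidneys lay above their reference groups, with control rat 3 and sham rat 1 lowest. Its partner Ccna2, cyclin A2, went from 1.29, 1.52 and 0.524 to 2.43, 4.42 and 2.64 FPKM and from 0.824, 1.39 and 1.78 to 3.33, 2.94 and 4.58 FPKM, rising in both (1.50, SE 0.42, adjusted p = 0.0198, and 1.41, SE 0.31, adjusted p = 0.006). Ccnb1, cyclin B1, rose from 2.55, 2.31 and 0.762 to 3.87, 7.26 and 4.82 FPKM in the adenine model (1.57, SE 0.47, adjusted p = 0.0254). It was 1.27, 3.21 and 4.65 FPKM in sham and 5.48, 6.62 and 5.51 FPKM in UUO rats, which did not pass (1.10, SE 0.43, adjusted p = 0.0573). The UUO call of Cdk1 was lost without UUO rat 1 (or 3), and the adenine calls of Ccna2 and Ccnb1 without adenine rat 2 (for Ccnb1 also without rat 3). Plk1, the polo kinase of mitotic entry, had the highest fold change of the kinases in the adenine model (2.14, SE 0.30, adjusted p = 0.00109), from 0.849, 1.13 and 0.543 to 3.29, 4.96 and 3.66 FPKM. Aurkb, the kinase of the chromosomal passenger complex, was highest of them in the UUO model (1.61, SE 0.39, adjusted p = 0.00876), from 0.376, 0.914 and 1.14 to 2.24, 2.2 and 3.05 FPKM. Aurka, a spindle pole kinase, rose from 1.81, 2.8 and 1.78 to 4.46, 5.97 and 5.58 FPKM in the adenine model and by 0.71 in the UUO model, and the phosphatase gene Cdc25c rose by 1.12 and 1.31.

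In the adenine model 3 of the 6 genes of the spindle checkpoint and the anaphase promoting complex rose, near the 39.6% of all entries. In the UUO model 5 of 6 rose, beside 56.1% of all entries. Bub1b, encoding the checkpoint protein BUBR1, was highest in each (2.18, SE 0.37, adjusted p = 0.00262, and 1.63, SE 0.50, adjusted p = 0.0229), from 0.353, 0.372 and 0.161 to 1.16, 2.38 and 1.58 FPKM and from 0.152, 0.686 and 0.775 to 1.37, 1.74 and 1.81 FPKM. In the adenine model Bub1b was tested only through the adenine rats. Lowest was Cdc20, the activator of the complex, at 4.04, 4.89 and 2.7 against 4.05, 7.94 and 5.62 FPKM and at 2.71, 5.5 and 6.73 against 5.56, 5.74 and 5.63 FPKM. Its groups overlapped in both tables and it passed in neither (0.57, adjusted p = 0.152, and 0.27, adjusted p = 0.468). Ube2c, the ubiquitin-conjugating enzyme of the complex, and Mad2l1, a checkpoint gene, rose in both (1.94 and 1.54, and 1.23 and 0.89). The checkpoint kinase genes Bub1 and Ttk rose in the UUO model (1.45 and 1.42) and had adjusted p = 0.0596 and 0.0655 in the adenine model.

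Of the cytokinesis genes, 5 of 5 rose in the adenine and 3 of 5 in the UUO model, the latter near the 56.1% of all entries. Anln, encoding anillin of the contractile ring, went from 0.245, 0.253 and 0.0244 to 0.689, 2 and 1.27 FPKM (2.41, SE 0.55, adjusted p = 0.00896) and from 0.0952, 0.326 and 0.973 to 1.05, 1.4 and 1.36 FPKM (1.61, SE 0.60, adjusted p = 0.0474). In the adenine model Anln was tested only through the adenine rats. Sham rat 3 was close to the lowest UUO rat, and the UUO call was lost without any single rat of its table except sham rat 3. The highest of the UUO model was Kif23, a motor of the central spindle, from 0.522, 0.688 and 1.33 to 2.34, 3.41 and 3.26 FPKM (1.79, SE 0.35, adjusted p = 0.00338), and it rose by 1.20 in the adenine model. Prc1, which bundles central spindle microtubules, rose by 1.50 and 1.40. Kif20a had the smallest values (0.68, adjusted p = 0.034, and 0.69, adjusted p = 0.122), from 3.45, 4.2 and 2.63 to 4.82, 6.6 and 5.07 FPKM and from 1.71, 4.07 and 4.41 to 4.82, 4.78 and 5.83 FPKM. Racgap1, the partner of Kif23 at the midzone, rose in the adenine model (1.49, adjusted p = 0.00148) and did not pass in the UUO model (0.74, adjusted p = 0.139), where UUO rat 3, at 1.24 FPKM, lay within the sham range of 0.78 to 1.7 FPKM.

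Of 5 genes for spindle motors, kinetochores and the passenger complex, 3 were tested. Kif2c, a microtubule depolymerase, rose in the adenine model (2.14, SE 0.40, adjusted p = 0.00398) from 0.519, 0.777 and 0.247 to 2.19, 3.41 and 1.89 FPKM. In the UUO model it was 0.266, 0.62 and 1.63 against 1.76, 1.76 and 2.48 FPKM (1.43, SE 0.55, adjusted p = 0.051). Birc5, survivin, passed in neither (0.65, adjusted p = 0.0986, and 0.67, adjusted p = 0.143). The large kinetochore genes Cenpe and Cenpf reached the minimum in fewer than 3 rats of either table and were not tested. Cenpe was 0.311, 0.279 and 0.219 FPKM in control against 0.459, 0.562 and 0.606 FPKM in adenine rats, and 0.135, 0.0848 and 0.31 FPKM in sham against 0.513, 0.337 and 0.692 FPKM in UUO rats, without overlap. Cenpf overlapped in both tables, at 0.408, 0.495 and 0.116 against 0.267, 0.722 and 0.823 FPKM and at 0.093, 0.335 and 0.56 against 0.472, 0.454 and 0.795 FPKM.

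Melk, Nek2 and Kif11 went against the other mitosis genes, and they were singled out after their values were seen. Melk, a kinase usually counted among proliferation genes, was 6.81, 13.1 and 17.1 FPKM in control and 1.01, 2.12 and 1.44 FPKM in adenine rats, and 17.7, 8.83 and 10.9 FPKM in sham and 1.45, 1.59 and 1.43 FPKM in UUO rats. All 6 diseased kidneys were below all 6 reference kidneys, each within its table, and Melk fell in both (-2.90, SE 0.40, adjusted p = 0.000998, and -2.92, SE 0.26, adjusted p = 0.000109). It was the only one of these genes called as a DEG that fell in the adenine and UUO models. It ranked 4 of 50 by mean FPKM in control and 5 of 50 in sham rats, above the other mitosis genes. Nek2, a centrosome kinase, was 5.96, 5.42 and 5.92 FPKM in sham and 1.85, 1.72 and 1.89 FPKM in UUO rats, and it fell (-1.61, SE 0.14, adjusted p = 0.000103). In the adenine model it was 2.85, 1.86 and 1.91 against 1.1, 2.86 and 1.75 FPKM (-0.28, SE 0.36, adjusted p = 0.537). Kif11, the motor that separates spindle poles, was 7.93, 9.97 and 13.5 FPKM in sham and fell to 5.71, 5.72 and 7.28 FPKM in UUO rats (-0.71, SE 0.21, adjusted p = 0.0213). In the adenine model it was 10.3, 6.91 and 6.58 against 2.47, 8.62 and 5.3 FPKM, which overlapped (-0.67, SE 0.44, adjusted p = 0.228). None of the 3 held TTTGAA, the only form of the CHR searched for, in its promoter window. Neither did 6 mitosis genes that did not fall or were not tested (Aurka, Bub1, Ccnb1, Cenpe, Kif20a and Kif2c).

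**Figure D3:**
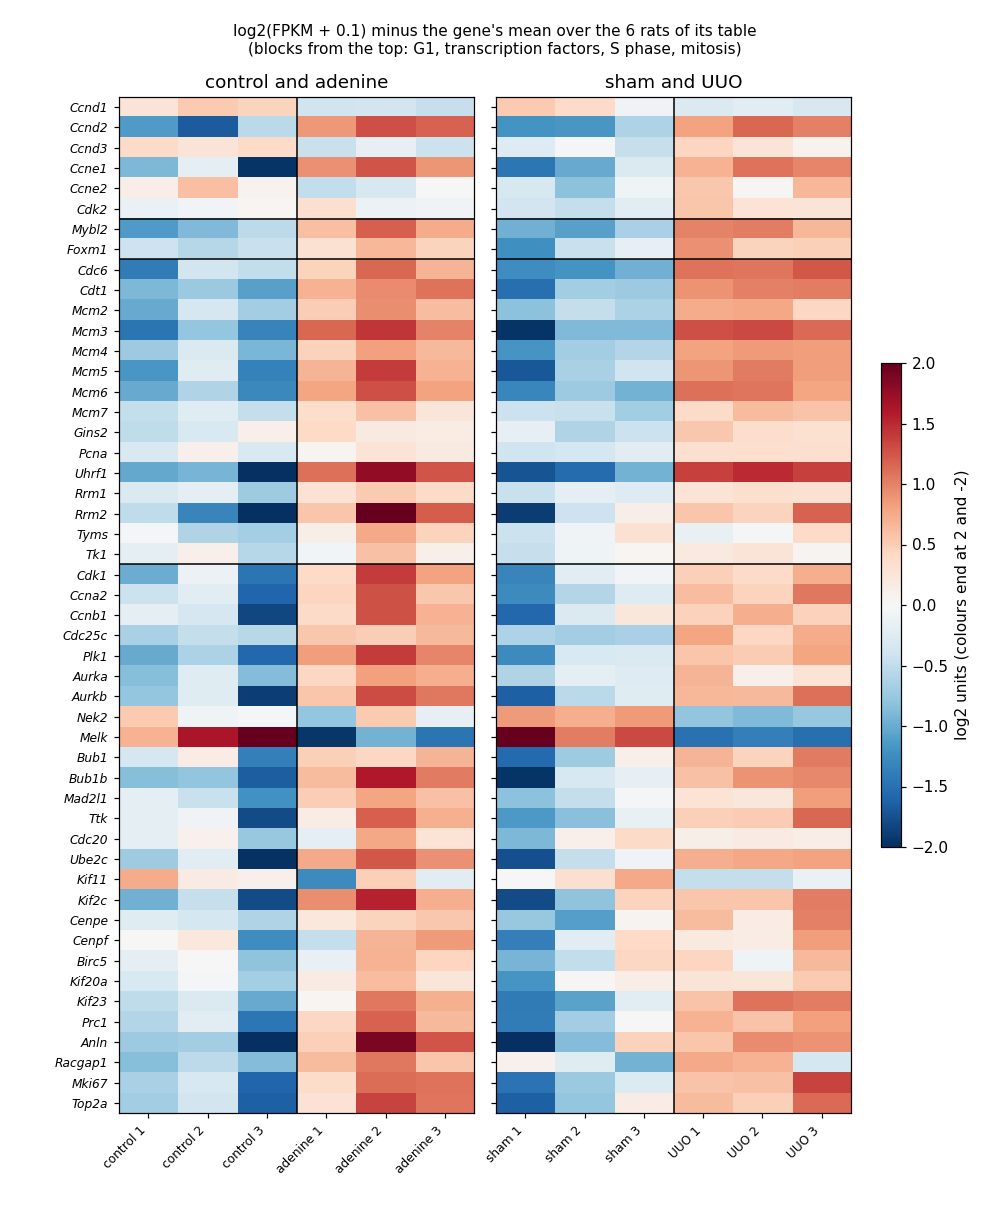
Log2(FPKM + 0.1) of the 50 genes (rows) minus each gene's mean over the 6 rats of its table, 1 column per rat, red above and blue below, with colours ending at 2 and -2. Control rat 3 and sham rat 1 are the bluest columns of the mitosis block, and Melk is reversed in both tables.

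The reference rats differed among themselves, and the mitosis genes did so together. Control rat 3 was the lowest of its group in 22 of 25 mitosis genes and control rat 2 the highest in 20. Sham rat 1 was the lowest in 21 and sham rat 3 the highest in 20, and adenine rat 2 was the highest of its group in 23. In all tested entries control rat 3 was the lowest in 4823 of 15029 and sham rat 1 in 5495 of 15043. Control rat 2 was the highest of its group in 5237 and adenine rat 2 in 5441 of 15029. Sham rat 3 was the highest in 5147 and UUO rat 3 in 6653 of 15043. Anln was the most uneven, with a highest control value 10.4 times the lowest and a highest sham value 10.2 times the lowest. For Pcna these ratios were 1.33 and 1.13. The mean log2 difference from the reference group, over the 25 tested mitosis genes, was 0.15, 0.40 and -0.55 in control and 0.79, 1.57 and 1.17 in adenine rats, and -0.57, 0.07 and 0.50 in sham and 0.81, 0.78 and 1.03 in UUO rats. Over the 15 S phase genes it was -0.03, 0.26 and -0.23 in control and 1.21, 1.69 and 1.34 in adenine rats, and -0.34, 0.11 and 0.23 in sham and 1.39, 1.44 and 1.43 in UUO rats. The highest sham rat and the lowest UUO rat were thus at 0.23 and 1.39 for S phase genes and at 0.50 and 0.78 for mitosis genes (0.56 and 1.13 without Melk, Nek2 and Kif11). Some marker levels moved with this order and others did not. UUO rat 3, highest in 17 of 25 mitosis genes, had the highest T cell sum (271 FPKM) and the lowest macrophage sum (723 FPKM) of its group. Its fibroblast sum (1150 FPKM) was also the lowest. Of the macrophage markers, Cd68, C1qa, C1qb and C1qc were lowest in that rat. Adgre1 (18.9, 18.2 and 37.5 FPKM) and Mrc1 (12.4, 6.6 and 13.5 FPKM) were highest in it. In adenine rat 2 the 6 T cell markers other than Cd4 were all the highest of the group (sums of 19.3, 37.9 and 24.2 FPKM), as was the fibroblast sum (768 FPKM), while Cd4 (104, 79.7 and 98.1 FPKM) and the macrophage sum (1230 FPKM) were the lowest. Cd68, Csf1r and Itgam were lowest in this rat, but Mrc1 (10.5, 18.6 and 14 FPKM) and Cd163 (5.63, 9.31 and 9.15 FPKM) were highest. Control rat 2 and sham rat 3, highest in most mitosis genes, had the lowest T cell sums of their groups (9.11 and 14 FPKM). The B and plasma cell sum was the highest of its group in UUO rat 3 (72.6 FPKM) and the lowest in adenine rat 2 (18.9 FPKM). Control rat 2 had the lowest proximal tubule, loop and distal, and podocyte sums of its group (1440, 1610 and 31.2 FPKM). Adenine rat 2 had the highest of its group (475, 423 and 60.3 FPKM). The podocyte sum was the highest of its group in sham rat 3 (198 FPKM) and the lowest in UUO rat 3 (50.8 FPKM). Taking Cd4 apart was a choice made after the values were seen, and the part of these cells in the mitosis values was not tested.

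The mean difference of S phase genes exceeded that of mitosis genes in 3 of 3 adenine rats (by 0.42, 0.12 and 0.17) and in 3 of 3 UUO rats (by 0.58, 0.66 and 0.40), while in control rats the excess was -0.18, -0.14 and 0.32 and in sham rats 0.23, 0.04 and -0.27. The adenine and control ranges overlapped, and the UUO and sham ranges did not. The means include Melk, Nek2 and Kif11. Without these 3, a trimming made after seeing the values, the excess in diseased rats was 0.05, -0.18 and -0.16 and 0.22, 0.31 and 0.03, which overlapped the reference rats in both tables. For the other S phase and mitosis genes of the same pathways the excess was below 0 in all 6 diseased rats. It was -0.45, -0.68 and -0.55 in adenine and -0.12, -0.06 and 0.18 in control rats, and -0.15, -0.10 and -0.37 in UUO and 0.30, 0.03 and -0.33 in sham rats. The median log2 fold change of S phase genes minus that of mitosis genes was -0.14 in the adenine and 0.15 in the UUO model. In the adenine model this difference changed sign without control rat 3 (0.23) and with a pseudocount of 1 (0.02).

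**Figure D4:**
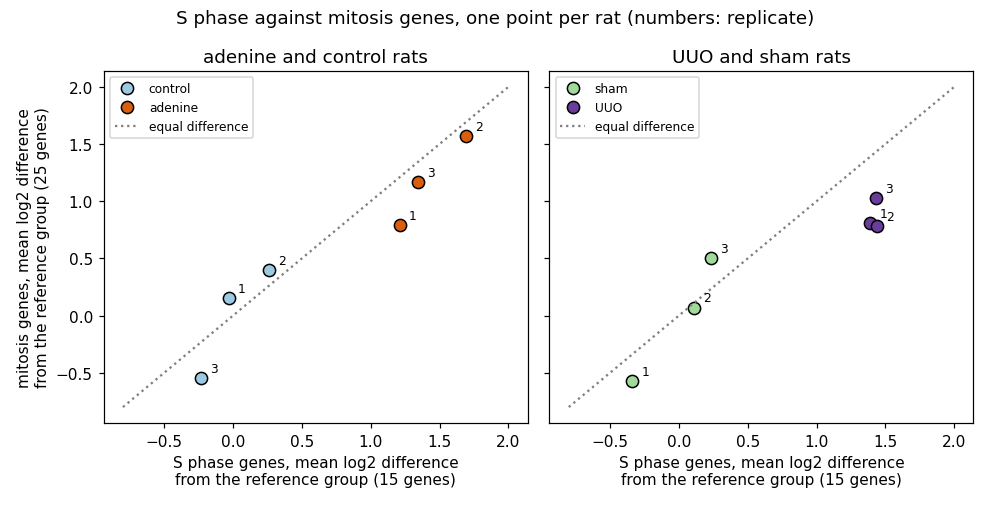
Mean log2 difference from the reference group over 15 S phase genes (x axis) and 25 mitosis genes (y axis), 1 point per rat, with the line of equal difference. All 6 diseased rats lie below the line, and UUO rats share nearly the same S phase value (1.39 to 1.44).

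The models were compared with each other by the difference of their log2 fold changes. It passed in 4 of 48 genes, 1 higher in the adenine and 3 higher in the UUO model, beside 27% of the 13486 symbols tested in both tables (5.25% and 21.7%). Ccnd3 (-1.19, SE 0.18, adjusted p = 0.000856), Ccne2 (-1.35, SE 0.38, adjusted p = 0.0195) and Cdk2 (-0.62, SE 0.20, adjusted p = 0.0391) were lower in the adenine than in the UUO model, and Nek2 (1.34, SE 0.39, adjusted p = 0.0229) was higher. Thus 3 of the 6 G1 genes differed, with 0 of 15 S phase genes (1 at an unadjusted p under 0.05) and 1 of 25 mitosis genes, the calls being from limma estimates and standard errors. With median-of-ratios scaling the difference no longer passed for Ccne2 and Cdk2, which leaves 1 of the 6 G1 genes. The median difference was 0.04 for the 48 genes and -0.28 for all symbols.

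Genes that restrain the cycle were also examined. Of the CDK inhibitor and pocket protein genes, 4 of 7 tested rose in the adenine and 4 of 8 in the UUO model, and none fell. Of all entries 39.6% and 56.1% rose. Cdkn1a, encoding p21, was 2.09, 1.49 and 4.37 FPKM in control and 24.5, 22.4 and 28.3 FPKM in adenine rats, and 3.35, 1.6 and 1.96 FPKM in sham and 30.8, 32.7 and 29.8 FPKM in UUO rats. Its rise (3.32, SE 0.36, adjusted p = 0.000397, and 3.76, SE 0.26, adjusted p = 4.21e-05) was larger than the log2 fold change of any of the 48 cell cycle genes in both models. Cdkn2a, encoding p16 and ARF, was listed at 0 in all control and at 0.0001 FPKM in all sham rats. It was 0.139, 0.277 and 0.157 FPKM in adenine and 0.162, 1.03 and 0.121 FPKM in UUO rats, below the minimum for a test. Its neighbour Cdkn2b, encoding p15, was 0.00843, 0.0438 and 0.0389 against 1.67, 0.234 and 1.67 FPKM in the adenine model, where it was not tested, and rose in the UUO model (3.38, SE 0.82, adjusted p = 0.00888) from 0.0001, 0.069 and 0.0202 to 0.519, 4.97 and 0.636 FPKM. It was tested only through the UUO rats, of which rat 2 stood far above the others.

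Cdkn2c, encoding p18, rose in the adenine model (0.93, adjusted p = 0.0151) and not in the UUO model (0.35, adjusted p = 0.107), and Cdkn1b, encoding p27, was 0.25 (adjusted p = 0.196) in the adenine model and rose by 0.66 in the UUO model (adjusted p = 0.00546). Cdkn1c, encoding p57, passed in neither (-0.30 and -0.26, adjusted p = 0.371 and 0.205). Of the pocket proteins, Rbl1, encoding p107, rose in both, from 0.594, 0.506 and 0.526 to 1.85, 2.74 and 3.02 FPKM (2.01, adjusted p = 0.000668) and from 0.752, 1.1 and 1.44 to 1.59, 1.86 and 2.15 FPKM (0.75, adjusted p = 0.0465). Rb1 rose in the adenine model (0.72, adjusted p = 0.0139) and not in the UUO model (0.35, adjusted p = 0.14), and Rbl2, encoding p130, passed in neither (0.06 and 0.25). Of 13 tested p53 targets and checkpoint kinases, 7 rose and 2 fell in the adenine and 8 rose and 1 fell in the UUO model (medians 0.60 and 0.89). Of all entries 39.6% rose and 19.9% fell in the adenine model. In the UUO model 56.1% rose, near the share of these genes, and 14.4% fell. Pkmyt1, 1 of the 8, was tested only through the UUO rats. The stress gene Gadd45b was highest (1.84 and 2.46) and its relative Gadd45g lowest (-1.29 and -0.98), both passing in each model.

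Other genes of the same pathways, listed by their roles, were counted in the same way. Of the E2F family other than E2f1, 5 of 6 tested rose in each model, beside 39.6% and 56.1% of entries. E2f8 was highest in the adenine model (2.05), where all control rats were below the minimum, and E2f2 in the UUO model (1.44). Of other S phase genes, 15 of 26 tested rose and 2 fell in the adenine model (median 0.76), and 24 of 29 rose and 2 fell in the UUO model (median 1.10). The highest were Chaf1b, of the chromatin assembly factor, in the adenine model (2.50) and Cdc7, the kinase that fires origins, in the UUO model (2.37), where all sham rats were below the minimum. Genes tested only through the diseased rats numbered 3 of the 26 and 5 of the 29. Dut, encoding dUTPase of nucleotide metabolism, fell in both (-1.39 and -0.38). Of other mitosis genes, 22 of 36 rose and 1 fell in the adenine model (median 1.24), and 26 of 37 rose and none fell in the UUO model (median 1.28), 4 and 1 of them tested only through the diseased rats. Ccnf, cyclin F, was highest in each (2.88 and 2.64), from 0.343, 0.603 and 0.0963 to 2.44, 3.23 and 2.77 FPKM and from 0.07, 0.424 and 0.681 to 2.52, 2.28 and 2.61 FPKM. The lowest were Cenpn, a centromere gene that fell in the adenine model (-0.66), and Cdc25a in the UUO model, a phosphatase gene that did not pass (-0.13).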

How the data were processed

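RNA was measured in kidneys of 12 rats by poly(A) sequencing with a stranded dUTP library, and every RNA exceeded a RIN of 7. Groups were taken from the sample labels, which match the columns of the tables, and no column was left out. The authors deposited FPKM values per gene in 2 tables, in which the lowest values are 0 and 0.0001. Submitters' processing notes name cutadapt 1.9, HISAT2 2.0.4, StringTie 1.3.4d, edgeR and DESeq2 without their roles. The genome build is not given in the sources used here, nor is the read depth, so no counting error was computed and precision rests on the spread between 3 rats. The study's DESeq2 test needs counts, which FPKM values are not.

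Each table was fitted with limma 3.58.1 (trend, R 4.3.3) on log2(FPKM + 0.1) for entries that reached 0.5 FPKM in 3 or more of 6 samples, with Benjamini-Hochberg adjustment over all 15029 and 15043 tested entries. A DEG also had a log2 fold change of 2 or more in size, after the study's threshold. The difference between models was divided by the root of the summed squared standard errors, referred to a t distribution with both tables' degrees of freedom added, and adjusted over 13486 symbols. Python 3.11.15, numpy 2.4.6, pandas 2.3.3 and scipy 1.17.1 were used elsewhere, and the fits were tested on simulated data.

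The members and all lists were chosen with earlier results of these data known. Values per rat are given for the G1 and transcription genes, Mki67, Top2a, Cdk1, Ccna2, Ccnb1, Pcna, Mcm2, Rrm2, Cdkn1a and Cdkn2a, for the highest and lowest member of each role in each model, for untested members and for members that differ between the models, and values of the highest and lowest gene of the other lists and of every CDK inhibitor and pocket protein. A few other members are given per rat for context. One result under this rule is left out and not reported here. Alternatives were pseudocounts of 1 and 0.01, no minimum, a minimum FPKM of 1, median-of-ratios, quantile and same-sum scaling, no variance trend, a replicate block and leaving out each rat. Promoter sequences are from RefSeq, GRCr8, and have no bearing on how the FPKM values were made.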

Additional observations from a re-analysis of the deposited data

Results flagged for a closer look

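In 4 of the 48 tested genes the log2 fold change differed between the models by a test of the difference itself (limma estimates, Benjamini-Hochberg adjusted over all shared symbols). The difference, adenine minus UUO, was -1.19 for Ccnd3, which fell in the adenine and rose in the UUO model. It was -1.35 for Ccne2, with fold changes of -0.54 and 0.81, and -0.62 for Cdk2, with 0.10 and 0.72. For Nek2 it was 1.34, with -0.28 in the adenine model and a fall of -1.61 in the UUO model. The models differ in agent, surgery, duration and table, which cannot be told apart, and the median difference of all symbols was -0.28. With median-of-ratios scaling of each table the difference no longer passed for Ccne2 and Cdk2. Without control rat 2, control rat 3, adenine rat 2 or adenine rat 3, it passed for Ccnd3 and Ccne2 only.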

How the results depend on the processing

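Scaling moved the UUO counts most. Members that passed in the UUO model numbered 40, against 19 with median-of-ratios scaling and 18 with quantile normalization. Of all UUO entries 70.5% passed in the main setting. With median-of-ratios scaling 27.2% of them rose and 28.8% fell, and with quantile normalization 29.3% rose and 27.5% fell. DEGs in the adenine model numbered 10, against 1 with a pseudocount of 1, 5 with median-of-ratios, 3 with quantile and 16 with same-sum scaling, and in the UUO model 4, against 2 with a pseudocount of 1, 8 with 0.01, 2 with quantile and 9 with same-sum scaling. Under a pseudocount of 1, median-of-ratios, quantile and same-sum scaling the S phase median was 1.00, 1.07, 0.84 and 1.62 in the adenine and 1.02, 0.88, 0.67 and 1.67 in the UUO model. The mitosis median was 0.98 (pseudocount of 1) and 0.93 (quantile) in the adenine model, and 0.77, 0.69 and 0.38 (pseudocount of 1, median-of-ratios and quantile) in the UUO model. S phase minus mitosis in the adenine model was 0.02 with a pseudocount of 1. Under a pseudocount of 1, median-of-ratios, quantile and same-sum scaling the median of all entries moved too. It was 0.24, 0.01, -0.01 and 0.57 in the adenine model (0.30 in the main setting). In the UUO model it was 0.50, 0.01, 0.03 and 0.84 (0.62 in the main setting). The pseudocount acts on low values by its construction, and median-of-ratios and same-sum scaling apply a common factor to all entries of a kidney. The cause of the other moves was not tested.

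Leaving out 1 rat at a time, 32 to 38 members passed in the adenine and 31 to 43 in the UUO model, with 5 to 15 and 4 to 12 DEGs. The S phase median was 1.20 to 1.53 and 1.19 to 1.77, the mitosis median 1.12 to 1.68 and 0.96 to 1.48, and their difference -0.38 to 0.23 and 0.18 to 0.29. Members that differed between the models numbered 2 to 5. In the adenine model calls were lost for Tyms, Ccna2, Ccnb1, Kif20a and Kif23 without rat 2 of that group, for these but Ccna2 without rat 3, for Tyms, Kif20a and Kif23 without control rat 3, for Tyms without control rat 2 and for Kif20a without control rat 1. In the UUO model they were lost for Ccnd3, Ccne2, Rrm2, Cdk1, Aurka, Bub1, Kif11 and Anln without UUO rat 1, for Rrm2, Bub1b, Kif11 and Anln without rat 2, and for Ccnd1, Ccne2, Rrm2, Cdk1, Bub1, Bub1b, Mad2l1, Ttk, Anln and Top2a without rat 3. Ccne2, Aurka, Mad2l1 and Anln lost theirs without sham rat 1, and Ccnd1, Ccne2, Rrm2, Bub1, Mad2l1, Kif11, Anln and Top2a without sham rat 2.

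Single genes changed sign as follows. In the adenine model Cdk2 was -0.19 (median-of-ratios), -0.24 (quantile) and -0.05 (without adenine rat 1), and Nek2 was 0.05 without adenine rat 1 (range over left-out rats -0.61 to 0.05). With median-of-ratios scaling the UUO values were -0.10 for Ccnd3, -0.01 for Rrm1, -0.47 for Tyms, -0.26 for Tk1 and -0.33 for Cdc20. Quantile normalization gave -0.06 for Ccne2, -0.57 for Tyms, -0.30 for Tk1, -0.10 for Aurka, -0.46 for Cdc20, -0.05 for Birc5, -0.08 for Kif20a and -0.13 for Racgap1. Without sham rat 1, Tyms was -0.05 and Cdc20 -0.11, and without UUO rat 3 Tyms was -0.03 (ranges over left-out rats -0.05 to 0.31 and -0.11 to 0.53).

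Rats of a number are different animals. The correlations of same-numbered rats' deviations were -0.0772, -0.123 and -0.0487 in the adenine and 0.05, 0.105 and 0.0593 in the UUO model, so the numbers were not taken to pair the rats. With a replicate block 36 and 43 members passed, and 2 differed between the models.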
